A study of Mus musculus with 12 samples.

Results

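Arc, the activity-regulated cytoskeleton-associated protein gene, was followed as 1 of the 41091 genes counted in acute hippocampal slices after chemical long-term potentiation (LTP). It was found by its Ensembl gene ID, with the version number ignored, and had 1 row in each of the count tables of the 1 hr and 3 hr time points. The 12 libraries fell into 4 groups of 3: control and LTP slices at 1 hr, and control and LTP slices at 3 hr. All slices came from wild-type male C57BL/6 mice of 2 to 3 months, had the dentate gyrus cut away and were perfused with artificial cerebrospinal fluid (ACSF). LTP was induced chemically with 50 uM forskolin, which activates adenylyl cyclase, for 5 min, and then for 5 min more with forskolin, 30 mM KCl and 10 mM calcium in combination. The control slices of the same animals received 0.2% DMSO in ACSF for 10 min. Slices were frozen 1 hr or 3 hr later, and total RNA depleted of ribosomal RNA was sequenced. The labels number the animals 1 to 3 at each time point and do not state whether the numbers stand for the same animals at both, so a number was read as pairing the arms of a time point only.

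Arc is an immediate early gene of neurons: its transcription starts within minutes of synaptic activity and needs no new protein. The mRNA travels into dendrites, where it is translated near active synapses and is decayed quickly, in part by nonsense-mediated decay. The protein speeds the endocytosis of AMPA-type glutamate receptors, and it descends from the Gag protein of a retrotransposon and can form capsids. In the hippocampus Arc is required for lasting synaptic plasticity and long-term memory, and its mRNA is widely used as a marker of recently active neurons.

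In the mouse genome (GRCm38) Arc, ENSMUSG00000022602.9 in the count tables, lies at chr15:74669083-74672570 on the minus strand. The annotation gives it 2 transcripts of 3 exons each. The whole coding sequence of 1188 bp lies in exon 1, and exons 2 and 3 are 3′ UTR in both transcripts. The exons cover 3057 bp, against a median of 3781 bp among the genes tested. No annotated gene overlaps Arc, so its counts are not shared with an antisense or nested gene. The GC content of its longest transcript is 59.0%, higher than that of 93.3% of the genes tested, whose median is 49.5%.

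A condition of the study bears on every LTP value of Arc below. By the study's methods, libraries were made only from slices in which quantitative PCR had shown a rise of Arc mRNA after LTP induction, along with a rise of the short Homer1 isoform and no change of the long isoform or of Hprt. The direction of the LTP effect on Arc was thus a condition of entry, and its p-values are no independent evidence of that direction. The size of the effect in each library, its change between time points and the comparisons between time points were not part of that condition, although a sample without a rise could not enter.

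The libraries held between 37118382 and 50815001 counts, and Arc between 5519 and 24372 of them. Counting error was therefore at most 2.65% of the Arc level (95% exact Poisson interval, which covers counting error only), and the spread between libraries set the precision. Markers of neurons and glia of the hippocampus were counted in all 12 libraries. The 5 markers of dentate granule neurons summed to between 162 and 293 CPM (counts divided by the TMM-scaled library size), so the trimmed slices still held some of these cells. Fewer cells of a type and less RNA per cell cannot be told apart in such bulk samples. The study set aside control replicate 2 of 1 hr as an outlier of its clustering, and the main fits leave it out too. The main values that it enters are also given with it included.

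In control slices at 1 hr, Arc stood at 151 CPM in replicate 1 and 131 CPM in replicate 3, and at 221 CPM in the replicate that was set aside. In LTP slices at 1 hr, the 3 replicates had 592, 538 and 533 CPM. In control slices at 3 hr they had 206, 219 and 212 CPM. All LTP libraries stood far above all controls, and the highest 1 hr control was at the level of the 3 hr controls. In LTP slices at 3 hr the replicates had 504, 511 and 541 CPM, a range that overlaps that of the LTP slices at 1 hr. From lowest to highest, the group means were 141 ± 14.3 CPM in 1 hr controls (SD, n = 2), 212 ± 6.25 CPM in 3 hr controls (n = 3), 519 ± 19.5 CPM in 3 hr LTP slices (n = 3) and 554 ± 32.8 CPM in 1 hr LTP slices (n = 3). With the set-aside library, the mean of the 1 hr controls was 168 ± 47.3 CPM (n = 3), and the order of the means stayed as it was.

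**Figure D1:**
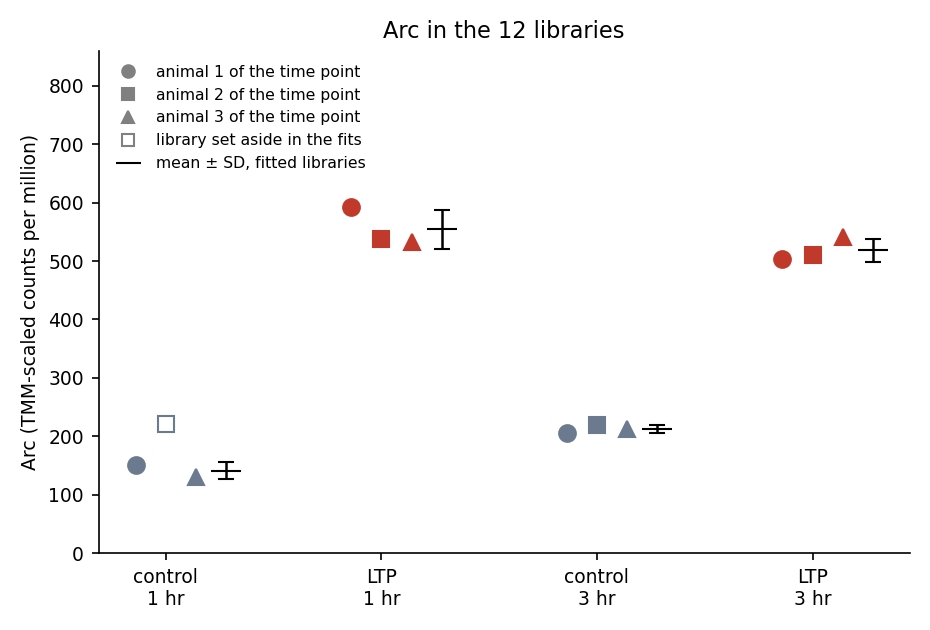
Arc in each library, in TMM-scaled CPM (vertical axis, from 0), for the 4 groups; the symbol gives the animal number within a time point, the open square is the set-aside 1 hr control, and bars are mean ± SD of the fitted libraries. The 6 LTP libraries sit between 504 and 592 CPM and the controls between 131 and 221 CPM.

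Per kilobase of exon, Arc reached 181 RPKM (CPM divided by exonic length in kilobases) in 1 hr LTP slices and 170 RPKM in 3 hr LTP slices, against 46.1 and 69.5 RPKM in their controls. On this scale Arc ranked between 96 and 122 among all genes in the 6 LTP libraries and between 487 and 973 in the 6 control libraries. The study's text describes expression analysis on reads in coding regions, while the deposited tables also hold counts for 3843 noncoding genes (2.06% to 3.25% of each library). Whether the Arc counts cover all exons or the coding sequence alone is therefore not settled, and in the latter case each RPKM of Arc would be 2.57-fold higher and its rank would differ.

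At 1 hr after induction, Arc was 3.94-fold as high in LTP as in control slices by the group means. The fitted log2 fold change was 1.99 (SE 0.0839, adjusted p = 3.57e-09, edgeR), with 5 libraries. Arc was among the 140 of 17736 genes that were called (0.789%), meaning an adjusted p under 0.1 and a fold over 1.2, and had rank 4 by p among all genes tested. The mean gain was 413 CPM. The groups did not overlap, which held for 22.6% of the genes tested. Within animals, the log2 ratio of LTP to control was 1.97 in animal 1 and 2.03 in animal 3. In animal 2, whose control is the set-aside library, it was 1.28. With all 6 libraries of 1 hr the fold change was 1.73 on the log2 scale (SE 0.142), and Arc was still called.

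At 3 hr after induction, Arc was 2.44-fold as high in LTP as in control slices. The log2 fold change was 1.30 (SE 0.0594, adjusted p = 3.21e-05, edgeR) over 6 libraries. At this time 1155 of 17508 genes were called (6.6%), 888 of them higher, and Arc had rank 2 by p and rank 65 by fold among those called. The ratios within animals were close to each other, at 1.29, 1.22 and 1.35 on the log2 scale for animals 1, 2 and 3. Arc gained 297, 292 and 329 CPM in these animals, a mean of 306 CPM. The groups did not overlap, as for 27% of the genes tested.

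The LTP effect on Arc was smaller at 3 hr than at 1 hr when the set-aside control was left out. The difference of the log2 effects was -0.68 (SE 0.102, adjusted p = 0.0310, edgeR, 11 libraries), and Arc was 1 of 11 genes of 18584 called for it (0.0592%, with 0.0323% called lower and 0.0269% higher). With all 12 libraries the difference was -0.44 (SE 0.186, adjusted p = 0.673), and it was not called. The call thus rested on leaving that 1 control out. It was also lost when any of 5 of the 11 libraries was left out in turn: 1 hr control replicate 3 (adjusted p = 0.370), 1 hr LTP replicate 1 (0.123), 3 hr control replicates 2 (0.119) and 3 (0.122), and 3 hr LTP replicate 1 (0.108). The difference itself kept its sign throughout these omissions, from -0.82 to -0.61.

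**Figure D2:**
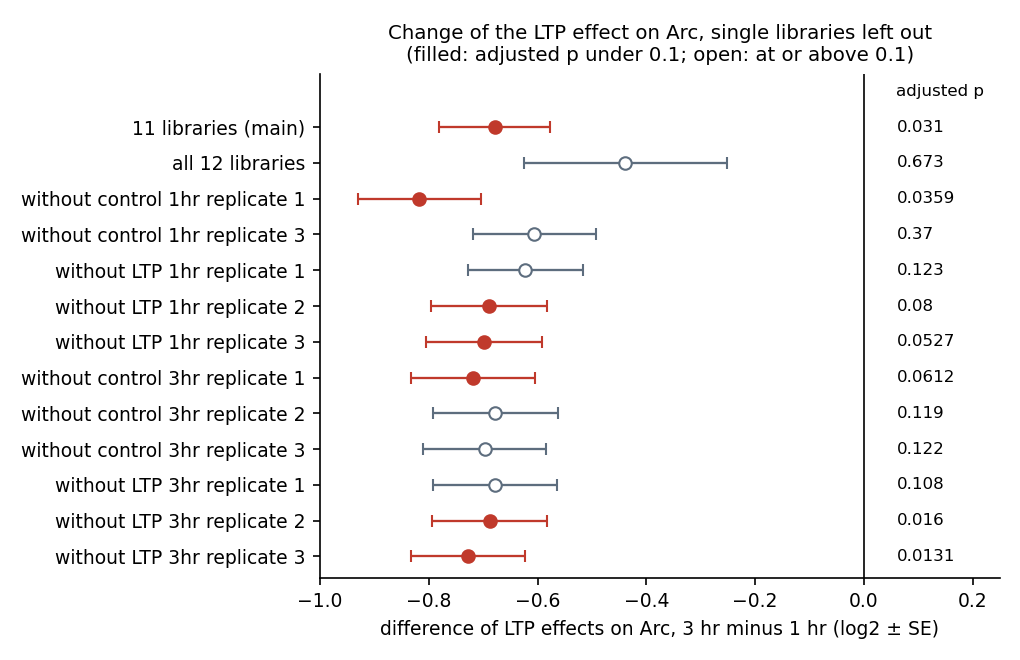
Difference of the LTP effects on Arc between 3 hr and 1 hr (horizontal axis, log2 ± SE) with 11 libraries, with all 12, and with each of the 11 left out in turn; numbers at the right are adjusted p, and filled points lie under 0.1. Every estimate is below 0, the one with all 12 libraries is nearest to 0 at -0.44, and 6 of the 11 omissions keep the call.

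On the linear scale the gain fell from 413 CPM at 1 hr to 306 CPM at 3 hr, which is 74.0% of the earlier gain (79.1% with the set-aside control). Without a correction for GC content and length, most of the difference on the log2 scale lay in the controls. Between 1 hr and 3 hr the mean log2 level of the fitted controls was higher by 0.60 and that of the LTP slices lower by 0.10, so the controls made up 86.2% of the difference of -0.69 between these means (79.9% of -0.47 with the set-aside control). In CPM the control level differed by 71.6 and the LTP level by -35.8.

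Tested directly, Arc was higher in 3 hr than in 1 hr control slices. The log2 difference was 0.56 (SE 0.0772, adjusted p = 2.31e-04, edgeR), and with the set-aside control it was 0.34 (SE 0.132, adjusted p = 0.0685) and still called. In LTP slices the difference was -0.11 (SE 0.0676, adjusted p = 0.201), and Arc was not called. A p above the threshold does not show that the level stayed the same. The fitted control groups did not overlap, as for 60.7% of the genes tested, and the LTP groups did, while for 44.9% of the genes they did not. Of 18584 genes, 32.8% were called between the control groups and 35.9% between the LTP groups, so a call between time points is common in these libraries. Time point, animals and any difference in how the sets of libraries were made cannot be told apart here. Of the 5 microglial markers 4 were called lower at 3 hr in each arm, their sum lying at 168 to 197 CPM in the 1 hr libraries and 120 to 142 CPM in the 3 hr libraries, and their part in these differences was not tested. Markers of other cell types were also called between time points, such as, of 4 CA3 markers, 2 lower and 1 higher in each arm, and 2 of 4 endothelial markers lower in controls but 2 higher in LTP slices. Neurod6, a marker of excitatory neurons, stood at 262 to 382 CPM in the 1 hr libraries and 144 to 181 CPM in the 3 hr libraries, and the part of these markers was not tested either.

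The comparisons between time points depended on whether GC content and length were corrected for, and the parts of GC content and of length were not tested apart. When each library was given an offset for GC content and exonic length, the control difference became 0.19 (adjusted p = 0.0803), below the fold minimum and not called, and the LTP difference became -0.45 (adjusted p = 2.37e-04) and was called. The LTP effects within a time point, at 2.01 and 1.36, and the difference between them, at -0.65, changed little under these offsets. With the offsets the larger part of the change lay in the LTP slices, and without them in the controls. The share of the change that lay in the controls thus depended on this choice.

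**Figure D3:**
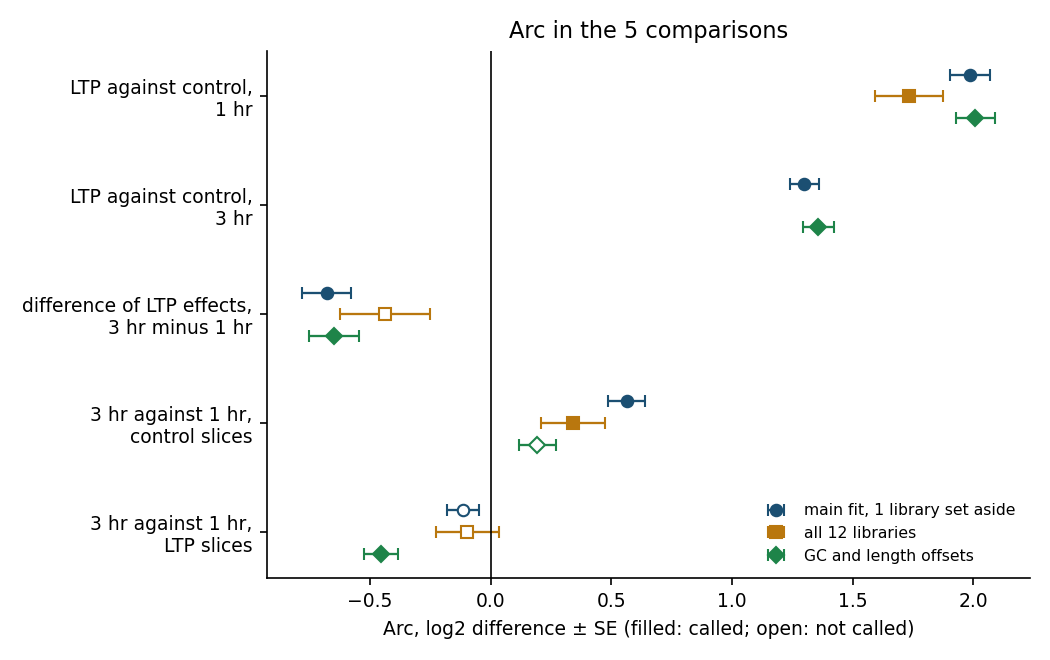
Arc in the 5 comparisons (horizontal axis, log2 difference ± SE) in the main fit, with all 12 libraries and with GC and length offsets; filled points were called and open points were not. The LTP effect at 3 hr has no separate value for all libraries, since none was left out there. The offsets move both comparisons between time points to the left and leave the LTP effects in place.

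Hprt, the reference transcript of the study's quantitative PCR, gave a second scale. Arc counts over Hprt counts were 1.35, 2.19 and 1.01 in the 1 hr controls (replicate 2 being the set-aside library) and 5.35, 4.76 and 4.62 in the 1 hr LTP slices. At 3 hr they were 1.57, 1.79 and 1.98 in controls and 4.95, 4.42 and 5.86 in LTP slices. The groups were apart on this scale too at both times. Hprt was not called between LTP and control at 1 hr (log2 -0.08, adjusted p = 0.936, edgeR) or at 3 hr (log2 -0.21, adjusted p = 0.287, edgeR). Unchanged Hprt in quantitative PCR was a condition of entry, so these values are no independent evidence that Hprt was stable. Relative to Hprt the LTP effect on Arc was 2.07 at 1 hr and 1.51 at 3 hr on the log2 scale.

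Other activity-regulated genes put these values in place. The list held 32 genes, Arc not counted, and 27 of them were called higher at 1 hr (84.4%, against 0.778% of all genes tested) and 26 at 3 hr (81.2%, against 5.07%). With the set-aside control 25 were called at 1 hr (78.1%, against 0.815% of all genes). Homer1 was among the called members at both times, and a rise of its short isoform was also a condition of entry. Its calls are thus no independent evidence, and how far that condition bore on the other members was not tested. Their median log2 fold change was 1.03 at 1 hr and 0.71 at 3 hr, and the median over all genes was -0.00 at both. The genes called lower made up 0.0113% of all at 1 hr and 1.53% at 3 hr, and included 0 members by edgeR and 0 by DESeq2, with 0 members lower at an unadjusted p under 0.05. Arc responded more than most of them: 4 of the 32 had a larger log2 fold change at 1 hr and 4 at 3 hr. At 1 hr these were the antiproliferative gene Btg2 (2.66), the transcription factor genes Npas4 (2.60), Egr2 (2.47) and Egr4 (2.28). At 3 hr they were Fos (1.48), Npas4 (1.43), Egr2 (1.40) and Btg2 (1.35). Fos, a subunit of the AP-1 transcription factor, was close to Arc at 1 hr with 1.97.

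Per length, Arc was also among the most abundant of these genes. In LTP slices only Fos and Plk2, a kinase of dendritic spines, had a higher RPKM at both times. In controls Plk2, Nrn1, Fos, Jund and Junb stood above Arc. The order of such levels rests on annotated exon lengths and was not tested.

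For 2 of the 32 genes the difference between the LTP effects at 3 hr and 1 hr was called, against 0.0592% of all genes: Btg2 (-1.31, SE 0.110, adjusted p = 2.2e-04) and Egr2 (-1.06, adjusted p = 0.0794). With the set-aside control the same 2 were called. The difference was below 0 for 26 of the 32 with a median of -0.23 on the log2 scale, and for 24 with a median of -0.17 with the set-aside control, where the median over all genes was 0.00 both times. These differences share their 1 hr controls, and most of them were not called. Btg2 and Egr2 were called lower at 3 hr in LTP slices and were not called in controls, in the main fit, whereas Arc was called higher in controls and not called in LTP slices. With GC and length offsets Arc too was not called in controls (0.19) and was called lower in LTP slices (-0.45). The values of Btg2 and Egr2 under these offsets are not given here, so the contrast is that of the main fit only. Btg2 had 224 ± 15.0 CPM in LTP slices at 1 hr and 90.0 ± 4.10 CPM at 3 hr, with 35.7 CPM in controls at both times. Egr2 had 61.6 ± 0.977 CPM in 1 hr and 32.3 ± 5.99 CPM in 3 hr LTP slices, and the log2 difference between its controls was 0.11. In control slices 14 of the 32 genes were called higher at 3 hr (43.8%, against 16.1% of all genes), and 11 with the set-aside control (34.4%, against 15%). Among these were Egr4 (log2 1.77), the activin subunit gene Inhba (1.38), Gadd45b (1.07) and the pentraxin gene Nptx2 (0.85), and 9 of the 32 had a larger value than Arc. In LTP slices 11 were called higher and 9 lower at 3 hr, where 18.6% of all genes were called higher and 17.3% lower.

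**Figure D4:**
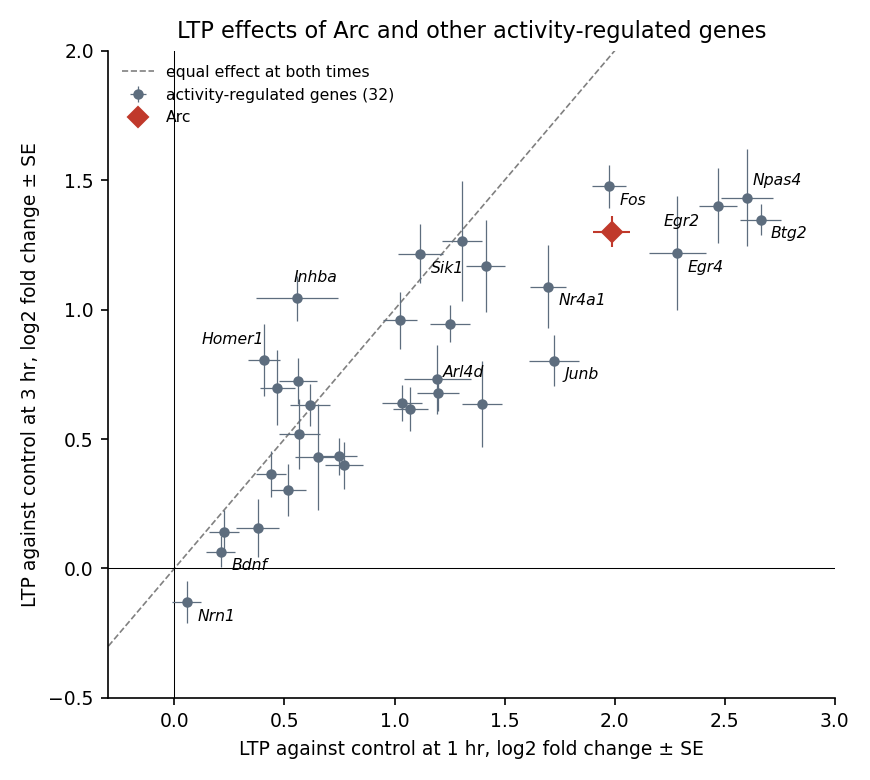
LTP effect at 1 hr (horizontal axis) and at 3 hr (vertical axis), each as log2 fold change ± SE, for Arc (red) and 32 other activity-regulated genes (grey); the dashed line marks equal effects. Arc lies below the line at 1.99 and 1.30, near Fos, and Btg2, Npas4 and Egr2 lie farthest to the right.

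The set-aside control differed from the other 1 hr controls in more genes than Arc. Arc was 1.57-fold as high in it as in the mean of the other 1 hr controls. Of the 32 activity-regulated genes, 22 lay above both of the other 1 hr controls in this library and 8 lay below both, while over all genes tested 38.5% lay above and 38.0% below. Of the 32, 30 still lay below all 3 LTP libraries of 1 hr, as did 33.0% of all genes. What set this library apart was not tested.

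The genes whose levels followed Arc most closely were sought among 11373 genes averaging 5 CPM or more, by Pearson's r of log2(CPM + 0.5) over the 12 libraries. The 8 closest were Arl4d (r = 0.991), Fos (0.991), Ppp1r15a (0.978), Gadd45g (0.975), Nr4a1 (0.969), Junb (0.966), Fosb (0.957) and Nr4a2 (0.951). The median r over all genes was -0.09, and 26 genes had an r over 0.9. The 12 points share 4 group means and their library scaling, so these values describe a common pattern over groups and libraries. Of the 8 genes, 7 were in the activity-regulated list, and the other was Ppp1r15a, which encodes a subunit that directs protein phosphatase 1 to the translation factor eIF2. Arl4d encodes a small GTPase, Gadd45g a stress-response protein, Nr4a1 and Nr4a2 orphan nuclear receptors, and Fos, Fosb and Junb parts of AP-1.

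The 8 genes were called higher in LTP slices at both times, which their choice by likeness to Arc over the same libraries largely fixed. Fos went from 202 ± 13.5 to 789 ± 45.5 CPM at 1 hr and from 272 ± 28.0 to 751 ± 31.97 CPM at 3 hr, the pattern nearest to that of Arc in size. Arl4d went from 12.8 ± 0.522 to 29.2 ± 1.78 CPM and from 16.5 ± 0.516 to 26.1 ± 0.354 CPM, with a smaller fold. These values describe the chosen genes and are no test of a shared pattern. Between control groups, Arl4d (log2 0.34), Fos (0.40), Nr4a1 (0.60) and Junb (0.54) were called higher at 3 hr, as were 16.1% of all genes. With the set-aside control Nr4a1 (0.47) and Junb (0.36) were still called, and Arl4d (0.17, adjusted p = 0.293) and Fos (0.26, adjusted p = 0.106) were not. Ppp1r15a (0.14), Gadd45g (0.22), Fosb (0.30) and Nr4a2 (0.08) were not called. In the set-aside control, Fos stood at 279 CPM and Junb at 164 CPM, near their 3 hr control means, and Nr4a2 at 41.2 CPM did not stand above the other 1 hr controls (43.0 ± 0.777 CPM).

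**Figure D5:**
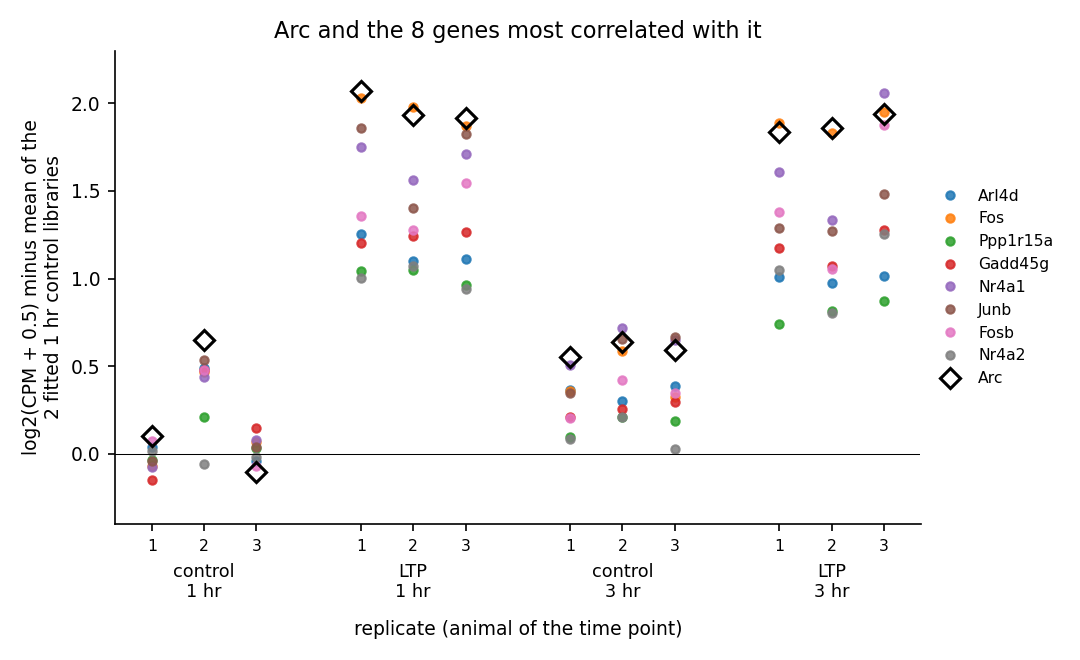
Level of Arc (open diamonds) and of the 8 genes most correlated with it (dots) in each library, as log2(CPM + 0.5) minus the mean of the fitted 1 hr controls; replicates 1 to 3 of each group stand side by side. All 9 genes are higher in every LTP library than in every control of their time point, and Arc and Fos lie highest in the LTP slices of 1 hr.

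The forskolin used for induction raises cyclic AMP, which acts on transcription largely through CREB, a factor that binds the cyclic AMP response element (CRE). Promoters of 250 bases before to 50 bases after the start site, from RefSeq on GRCm38.p6, were therefore read for the CRE, TGACGTCA, and its half-site, TGACG, on both strands. All 8 genes had an entry, and Arc had none. The full CRE was found in 2 of the 8 (Arl4d and Ppp1r15a) and in 1.79% of 32851 promoters. The half-site, which every full CRE contains, was found in 7 of the 8, all but Gadd45g, and in 20.8% of all promoters. The letters of a TATA box, TATAAA, were found in 5 of the 8 and in 13.6% of all promoters, at any position and on either strand. In Ppp1r15a a match lies after the start site. A CArG box, the element of serum response factor, was found in 0 of the 8 and 1.63% of all. Bases farther than 250 before the start were not read, so this does not show that these genes lack a CArG box. These are matches of letters in a short window and not shown binding sites. For each gene with a match, the full CRE where there is one, and otherwise the half-site nearest to the start site, is given below on the gene's strand, to show the element next to the start of genes that followed Arc, with the CRE or half-site in capitals and the position of the first capital from the start site (read as CGTCA where it lies on the other strand):
Arl4d, chr11:101665505-101665532, plus strand, capitals from position -26: ccgcgtcgtgTGACGTCAcgagagggtt
Ppp1r15a, chr7:45526263-45526290, minus strand, capitals from position -12: gcctctccggTGACGTCAgcacagcgcc
Fos, chr12:85473814-85473838, plus strand, capitals from position -66: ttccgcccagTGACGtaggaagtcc
Nr4a1, chr15:101266796-101266820, plus strand, capitals from position -40: cctctccatgCGTCAcggagcgctt
Junb, chr8:84978840-84978864, minus strand, capitals from position -106: ttcctgacagTGACGcgagccgcct
Fosb, chr7:19310091-19310115, minus strand, capitals from position -60: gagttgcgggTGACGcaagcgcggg
Nr4a2, chr2:57124100-57124124, minus strand, capitals from position -111: acggggccgcTGACGcgcttggccg

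Of the genes next to Arc, 0 of 6 tested at 1 hr and 0 of 5 at 3 hr were called between LTP and control slices, where 0.789% and 6.6% of all genes were, so little can be read from these counts. The nearest tested genes on the side of lower coordinates were Adgrb1 at 79.6 kb, the pseudogene Gm7935 at 588 kb and Mroh5 at 829 kb. On the other side lay Jrk at 29.7 kb, Them6 at 48.6 kb and Lynx1, which encodes a modulator of nicotinic receptors, at 75.3 kb. At 1 hr their log2 fold changes ran from -0.71 to 0.64 with adjusted p from 0.762 to 0.997. At 3 hr those of the 5 tested ran from -0.38 to 0.19 with adjusted p from 0.352 to 0.954. Adgrb1, an adhesion receptor of synapses, stood at 145 CPM in both 1 hr groups and at 226 and 255 CPM in the 3 hr controls and LTP slices. It was called higher at 3 hr in both arms (log2 0.61 and 0.80), as was Them6 (0.46 and 0.46), while 16.1% of all genes were called higher in controls and 18.6% in LTP slices. Gm7935 was called lower at 3 hr in LTP slices, from 0.330 to 0.159 CPM (log2 -1.07, adjusted p = 0.0794), as were 17.3% of all genes.

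Genes that regulate Arc transcription, activators as well as the deacetylase genes Hdac3 and Hdac4, made a list of 25, of which Npas4, Egr1, Egr3 and Bdnf also stand in the activity-regulated list. At 1 hr 3 were called higher, Npas4 (log2 2.60), Egr1 (1.31) and Egr3 (0.65), all inducible transcription factors. That is 12%, against 0.778% of all genes, and with the set-aside control 2 were called, Npas4 and Egr1. At 3 hr 5 were called higher (20%, against 5.07%): Npas4 (1.43), Egr1 (1.27), the coactivator genes Crebbp (0.48) and Ep300 (0.62), and the deacetylase gene Hdac4 (0.34). The count at 3 hr ranged from 2 to 10 when single libraries were left out, and it was 8 with the animals as a block. The median log2 fold change of the list was 0.04 at 1 hr and 0.10 at 3 hr. The constitutive factors that bind the Arc enhancer were not called at either time: Creb1 had -0.02 and -0.12, Srf 0.21 and 0.14, Mef2a -0.03 and -0.05, and Mef2d 0.10 and 0.37. Between time points 8 of the 25 were called in controls (32%, near the 32.8% of all genes) and 12 in LTP slices (48%, against 35.9%). In both arms Creb1, Mef2a, Mef2c and Camk4 were called lower at 3 hr, and Crtc1, Crtc2, Mrtfa and Hdac4 were called higher. With the set-aside control 5 remained in controls (20%, against 27.4% of all genes), without Mef2a, Mef2c and Mrtfa.

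Genes of Arc RNA transport, translation and decay made a list of 22. At 1 hr edgeR called 0 of them and DESeq2 called 1, while 2 passed an unadjusted p of 0.05. Of all genes 0.789% were called and 6.71% had an unadjusted p under 0.05 at 1 hr, so for a list of this size a count of 0 is near that background. The 1 member called at 3 hr was Smg1, the kinase of nonsense-mediated decay, with 267 ± 10.6 CPM in controls and 338 ± 6.198 CPM in LTP slices (log2 0.36, adjusted p = 0.0159). That is 4.55%, a share below the 6.6% of all genes. The call was lost with GC and length offsets (log2 0.12, adjusted p = 0.184) and without 3 hr control replicate 2 (log2 0.32, adjusted p = 0.124). The median of the list was 0.02 at 1 hr and 0.01 at 3 hr. The helicase gene Upf1 had -0.07 and 0.15, the exon junction gene Eif4a3 -0.09 and -0.15, and Fmr1, whose protein represses dendritic translation, 0.01 and -0.03. Between time points 22.7% of the list was called in controls and 27.3% in LTP slices, below the 32.8% and 35.9% of all genes. Upf1 was called higher, and Upf3b and Stau2 lower, at 3 hr in both arms.

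Partners of the Arc protein, enzymes of its turnover and AMPA receptor genes made a list of 24. At 1 hr 0 were called by edgeR and 0 by DESeq2, and 0 had an unadjusted p under 0.05, beside the same 0.789% and 6.71% of all genes. At 3 hr 4 were called higher (16.7%, against 5.07%): Grin2b (955 ± 34.6 CPM in controls and 1477 ± 145 CPM in LTP slices, log2 0.64) and Grin2a (0.46), which encode NMDA receptor subunits, Wasf1 (0.54), an actin regulator, and Iqsec2 (0.53), an exchange factor of the postsynapse. Grin2b is also 1 of the 5 excitatory markers, of which 2 were called higher in LTP slices at 3 hr. Their sum lay between 3715 and 5347 CPM in the 3 hr LTP libraries and between 3633 and 3789 CPM in the 3 hr controls, so the ranges overlapped, and the part of these markers was not tested. The count of list members called at 3 hr ranged from 1 to 6 when single libraries were left out. The ubiquitin ligase genes of Arc, Ube3a (-0.06 and 0.06) and Rnf216 (0.06 and 0.12), and its endocytic partners Sh3gl3 (0.00 and 0.02) and Dnm2 (-0.05 and 0.07) were not called at 1 hr or 3 hr. Another endocytic partner, Ap2m1, was lower at 3 hr (log2 -0.23, adjusted p = 0.0651, edgeR) and missed a call only by the fold minimum. Its value at 1 hr was -0.15 (adjusted p = 0.787, edgeR). Dnm1 (-0.21 and 0.00) and Sh3gl1 (-0.08 and -0.02) were not called. The AMPA receptor genes Gria1 (-0.02 and 0.12) and Gria2 (-0.01 and 0.02) were not called between LTP and control either. Between time points 25% of the list was called in controls and 33.3% in LTP slices, below the 32.8% and 35.9% of all genes. In controls Grin2b (log2 -0.34), Ube3a, Gria1, Gria2 and Gria4 were called lower at 3 hr, and Sh3gl1 higher. With the set-aside control Sh3gl1 and Grin2b remained (8.33%, against 27.4% of all genes).

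Relatives of Arc that also descend from retroviral or retrotransposon Gag proteins made a list of 20. At 1 hr 18 were tested, edgeR called 0 (0.789% of all genes), DESeq2 called 1, and 3 had an unadjusted p under 0.05 (6.71% of all genes). Pnma5 and Moap1 at both times and Rtl1 at 3 hr (0.0571 CPM in controls and 0.109 CPM in LTP slices) had too few counts to be tested. Low counts do not show that these genes were little expressed. Whether strand was used in the counting is not stated, and reads shared with an overlapping gene may be missing. The shares below thus say nothing of these genes. At 3 hr 17 were tested and 2 were called higher, Rtl5 (10.8 ± 0.267 CPM in controls and 15.1 ± 0.552 CPM in LTP slices, log2 0.49, adjusted p = 0.0121) and Peg10 (8.65 ± 1.17 and 11.9 ± 1.82 CPM, log2 0.47, adjusted p = 0.0992). That is 11.8%, against 6.6% of all genes in either direction. The call of Peg10 was lost with voom (adjusted p = 0.109) and in 5 of the 6 omissions of single libraries, with adjusted p up to 0.299, while Rtl5 was called in each of these. Their log2 values at 1 hr were of similar size, 0.50 for Rtl5 and 0.61 for Peg10, with adjusted p of 0.137 and 0.332. Zcchc18 had group means of 228 to 265 CPM and was not called, with log2 values of -0.01 and -0.17. The near-identical Rtl8a, Rtl8b and Rtl8c may share reads, so their values are uncertain.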

How the data were processed

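RNA-seq libraries were made by the authors from total RNA of hippocampal slices with a stranded kit after depletion of ribosomal RNA. The aligner named in the study's methods is STAR, with GRCm38/mm10 as reference, and the deposited tables hold the raw counts per gene made with Bioconductor packages. Whether strand was used is not stated.

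Symbols, exons and GC content came from GENCODE M21 (40217 of 41091 gene IDs matched, 874 did not). Counts were tested with edgeR 4.0.16 (R 4.3.3, quasi-likelihood F test, filterByExpr, TMM scaling, Benjamini-Hochberg adjustment over all genes tested). Each time point was fitted alone without an animal term (5 libraries at 1 hr, 6 at 3 hr), and comparisons across time points in a model of the 4 groups (11 libraries). A call needed an adjusted p below 0.1 and a fold above 1.2, the study's thresholds, and the difference of effects without the fold minimum. CPM were scaled with TMM, RPKM divide them by exonic length, and the ratios of Arc within animals used no pseudocount. The floor of 3 counts was 0.0584 to 0.0791 CPM.

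Alternatives were DESeq2 1.42.0, voom of limma 3.58.1, other scalings and filters, offsets for GC content and length from splines with 5 degrees of freedom, an animal block, all libraries, and single libraries left out. Named genes were Arc, the 3 nearest tested genes on each side, the 8 most correlated genes, called members of 5 gene lists and, where few were called, further members in list order. Members named although not called and outside that order, and genes named for how they compare with Arc, were chosen after their values were seen. Arc, the lists and the tests were chosen with earlier results of these data known.

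No pair of replicates was near identical (chi-square per degree of freedom 9.49 to 85.6). Pairing comes from the animals named in the labels. The correlation of deviations within pairs in animals 1, 2 and 3 was -0.02, -0.13 and 0.07 (1 hr), then 0.03, -0.04 and 0.19 (3 hr).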

Additional observations from a re-analysis of the deposited data

Results flagged for a closer look

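The difference between the LTP effects at 3 hr and 1 hr was called for Arc (-0.68 on the log2 scale) and, among the other activity-regulated genes, for Egr2 (-1.06) and Btg2 (-1.31). For Arc the controls differed more between the time points than the LTP slices did in the main fit, and for Egr2 and Btg2 the LTP slices did. With GC and length offsets Arc differed more in the LTP slices (-0.45) than in the controls (0.19). The call of Arc was lost with all 12 libraries.

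Arc stood at 221 CPM in 1 hr control replicate 2, a library outside the main fits, against 141 ± 14.3 CPM in the other 1 hr controls (n = 2). It lay below all LTP libraries and slightly above the 3 hr controls (212 ± 6.25 CPM, n = 3).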

How the results depend on the processing

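Arc stayed called and higher in LTP slices at 1 hr under all 19 alternatives with a test (log2 1.73 to 2.09) and at 3 hr under all 16 (1.26 to 1.36). Over Hprt counts the 3 hr effect was 1.51. With the animals as a replicate block the effects were 2.01 and 1.30 and their difference -0.70 (adjusted p = 0.0209). A block could not be fitted for the comparisons across time points, since each animal number lies within a time point. The difference of the effects lost its call with all libraries in edgeR (-0.44), with the replicate block (-0.47, adjusted p = 0.572), DESeq2 (-0.44, 0.504) and voom (-0.47, 0.649), and ranged from -0.82 to -0.61 with single libraries left out. With GC and length offsets the control difference fell to 0.19 and the LTP difference to -0.45, and over Hprt the latter was 0.040. The cause of these shifts was not tested.

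Among the lists, transcription regulators called at 3 hr numbered 8 with DESeq2, 9 with GC and length offsets and 8 with the replicate block (main 5, and 2 to 10 with single libraries left out). RNA genes called at 1 hr numbered 1 with DESeq2, without the filter and with all libraries (0 to 1 with libraries left out), and at 3 hr 0 with the offsets (0 to 2). Partner genes ranged from 0 to 1 at 1 hr and from 1 to 6 at 3 hr with libraries left out. Gag relatives called at 1 hr numbered 1 with DESeq2, 2 without the filter and 1 with the replicate block (0 to 3 with libraries left out), and at 3 hr 1 with voom (1 to 3). The replicate block changed no other call of Arc and no other list count by over 1.5 times. Over all genes at 3 hr, 888 higher and 267 lower calls became 941 and 503 with the offsets, and the 11 calls for the difference became 23. Of the 8 genes most like Arc, 5 stayed with Spearman's correlation. Counting error was small for Arc, and groups of 2 or 3 libraries give a rough estimate of the spread.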
